A study of Mus musculus with 2 samples.

Results

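The genes described here are the NF-kappaB subunits Nfkb1, Nfkb2, Rel, Rela and Relb, and genes listed as inhibitors of the pathway that are themselves induced by it, namely Nfkbia, Nfkbie, Nfkbid, Bcl3 and Tnfaip3. They were taken by name, as the gene probes of both arrays whose accession resolved to 1 of these 10 symbols. All 10 were found among 20887 named genes, on 12 probes and 13 spots. The levels were measured in TCRαβ+CD8αα+ IELs, the unconventional T cells that lie between the epithelial cells of the small intestine, by Agilent gene expression arrays of 1 color. The Control array carried RNA of Rbpjf/f mice, in which Rbpj, the transcription factor of the Notch pathway, is flanked by loxP sites. The RFF4 array carried RNA of CD4-Cre Rbpjf/f mice, where Cre recombinase under Cd4 regulatory sequence removes the floxed segment in developing T cells. Both groups were C57BL/6 mice of 8 to 12 weeks, with males and females pooled, and cells of each were sorted after depletion of CD4+ and TCRγδ+ cells. The labels name no Cre for the Control mice, whereas the paper describes its control mice as Rbpj+/+ with the CD4-Cre transgene, so neither the Rbpj allele of the controls nor whether both groups share the transgene was settled here.

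NF-kappaB is a family of dimeric transcription factors held in the cytoplasm by IkappaB proteins. When a receptor such as the TCR or a TNF receptor is engaged, the IkappaB kinases mark IkappaB for degradation, and the freed dimers enter the nucleus. Rela, Rel and the p50 product of Nfkb1 serve this canonical pathway, while Relb and the p52 product of Nfkb2 serve the slower noncanonical pathway, which depends on processing of p100. The activated factors induce their own inhibitors, among them IkappaBα and the ubiquitin-editing enzyme A20, which closes the loop. In T cells the pathway controls survival, activation and cytokine production. Most of this regulation acts on proteins, which the arrays did not measure.

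The promoters of members are shown because the letters bound by the family recur in them. Of the 10 genes, 8 had promoter windows in the RefSeq table of GRCm38.p6 (250 bases before to 50 after a start, 13 windows in all), and Nfkb1 and Relb had none. The kappaB consensus, searched on both strands, is 3 guanines, a purine, any base, an adenine or thymine, 2 pyrimidines and 2 cytosines. It was found in 9 of the 13 windows, in Bcl3, Nfkb2, Nfkbia, Nfkbid, Nfkbie, Rel and Tnfaip3, and in 4.51% of 32851 windows of all genes. Windows of a gene can overlap, and 1 site of Nfkb2, GGGACTTTCC, was counted in 2 windows. This consensus was adopted after the matches of a looser motif had been seen, which asks for 3 guanines, an adenine, any 4 bases and 2 cytosines. The looser motif was found in 10 of the 13 windows, Rela but not Nfkbie included, and in 20.7% of all windows. The core letters bound by RBPJ, TGGGAA, were found in 3 of the 13 windows, in Nfkbid, Rel and Tnfaip3, and in 25.6% of all windows. In 1 window, of Nfkbid, a kappaB match and an RBPJ match overlapped. The 4 sequences below are the 250 bases before the start in windows of 2 subunits and of 2 inhibitors, with matches of the consensus and of the RBPJ core in capitals. These are matches of letters, and binding was not measured.
Nfkb2, chr19:46304487-46304736, plus strand: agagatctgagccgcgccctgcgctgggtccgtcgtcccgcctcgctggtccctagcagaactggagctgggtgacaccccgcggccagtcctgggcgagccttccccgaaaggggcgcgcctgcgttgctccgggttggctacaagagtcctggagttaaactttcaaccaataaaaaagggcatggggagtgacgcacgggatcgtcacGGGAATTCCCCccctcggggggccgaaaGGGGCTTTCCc
Rel, chr11:23770970-23771219, minus strand: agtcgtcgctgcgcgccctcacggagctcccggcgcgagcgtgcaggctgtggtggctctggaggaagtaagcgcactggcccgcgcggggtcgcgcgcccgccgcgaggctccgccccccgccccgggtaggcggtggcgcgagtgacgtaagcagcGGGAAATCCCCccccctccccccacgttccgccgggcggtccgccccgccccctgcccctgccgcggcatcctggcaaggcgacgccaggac
Nfkbia, chr12:55492648-55492897, minus strand: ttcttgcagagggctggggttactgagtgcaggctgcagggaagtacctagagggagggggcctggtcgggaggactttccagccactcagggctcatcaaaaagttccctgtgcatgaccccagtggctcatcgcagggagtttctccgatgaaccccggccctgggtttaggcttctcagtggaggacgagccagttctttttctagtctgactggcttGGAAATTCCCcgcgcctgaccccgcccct
Tnfaip3, chr10:19015411-19015660, minus strand: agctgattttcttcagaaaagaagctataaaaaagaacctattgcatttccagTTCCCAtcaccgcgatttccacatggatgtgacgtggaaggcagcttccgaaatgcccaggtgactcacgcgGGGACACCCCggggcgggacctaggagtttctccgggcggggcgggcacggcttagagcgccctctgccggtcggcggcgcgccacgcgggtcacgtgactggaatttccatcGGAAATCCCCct
In Nfkbia, the gene of IkappaBα, the match GGAAATTCCC began 29 bases before the start. In Nfkb2 the match GGGAATTCCC began 39 bases before the start and a further one, GGGGCTTTCC, 11 bases before it. In Rel the match GGGAAATCCC began 92 bases before the start. In Tnfaip3 the match GGAAATCCCC began 12 bases before the start and the letters TTCCCA, the RBPJ core on the other strand, 197 bases before it.

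RNA was pooled over several isolations, and 150 ng was labelled for 1 array of each genotype. With 1 array in each group no test, standard error or p-value across samples can be given, and the differences below compare the 2 arrays, not the genotypes. Of 59305 gene spots, 57.2% were well above background on the Control array and 49.7% on the RFF4 array, and 0 were saturated. Levels are log2 signals relative to the 75th percentile of each array, and differences are RFF4 minus Control. The only error available is technical: from probes with 10 spots on each array, the SD of a log2 difference was 0.16, which covers neither animals, sorts nor labelling. The scanner software's own error was 0.20 for the difference of each member but Rel. Of the Notch targets used to check the labels, Dtx1 was 6.66 on the Control array and 3.03 on the RFF4 array, a difference of -3.63, and Heyl had a difference of -3.80. The Rbpj signal itself was 1.96 on the Control array and 2.28 on the RFF4 array, a difference of 0.32, and its other probe differed by 0.82, giving 0.57 for the mean of both. The sign of these depended on the scaling. It is not stated here where the Rbpj probes lie relative to the floxed segment. Of the markers of the sorted cells, Cd3e stood at 8.10 and 8.44 and Cd8a at 6.24 and 6.18, while Cd8b1, whose protein the sort selects against, was well above background on the Control array at -3.52 and not on the RFF4 array. Some other markers of T cells and IELs stood further apart, with differences of 2.22 for Cd2, 2.35 for Klrb1b and 1.02 for Gzma. Of 8 T cell markers with a difference 1 was more than 2-fold higher, and of 8 IEL markers 2, against 12.3% of all genes. The T cell markers had a median of 0.35, with 7 higher and 1 lower. The IEL markers had a median of -0.01, with 4 higher and 4 lower. Foxp3, of T cells the sort should remove, differed by 1.20. Cd4, whose protein was used for depletion, was well above background on both arrays at 1.67 and 1.80 by its brightest probe, while its other probe stood at -3.88 and -5.20 and was not well above background on the RFF4 array.

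Among the subunits, Nfkb1 and Nfkb2 differed in opposite directions, while Rela and Relb lay within 1 technical SD of equality under 75th percentile scaling. Nfkb1, which encodes p105 and p50, was 1.10 on the Control array and 1.56 on the RFF4 array, a difference of 0.46 (1.37-fold higher). The signals before scaling were 1096 and 670, so that this direction rests on the scaling. Its other probe, the mean of 2 spots on each array, stood at -0.11 and -0.05, a difference of 0.06, so the 2 probes of the gene did not give the same size. Nfkb2, which encodes p100 and p52, was 2.82 on the Control array and 2.35 on the RFF4 array, a difference of -0.46 (1.38-fold lower). The gap between the differences of Nfkb1 and Nfkb2, 0.92, was the widest of the 36 pairs of members well above background on both arrays. It does not depend on the constant each array is scaled by, and with the other Nfkb1 probe it would be narrower. For such a gap between 2 differences the technical SD was 0.22. Of the 36 pairs, 14 (38.9%) differed by more than 2 of these SDs, against 62.4% of all pairs of genes. Of these 14, 7 hold Nfkb1, and with its other probe 8 of the 36 pairs did so.

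Rela, the transactivating p65 subunit, was 6.18 on the Control array and 6.08 on the RFF4 array, a difference of -0.10. Relb, the partner of p52, was 2.93 and 2.78, a difference of -0.15, and its other probe at 2.18 and 2.03 gave the same size. Rel, the lymphoid subunit c-Rel, was the only member near background. Its level was -4.09 on the Control array, and -4.66 on the RFF4 array where it was not well above background. Set against the lowest signal well above background on that array, Rel was at least 1.15-fold lower there, a bound of -0.20. The software error of its difference, 0.46, was larger than this bound. The median difference of the 5 subunits was -0.15, with 1 higher and 4 lower.

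**Figure D1:**
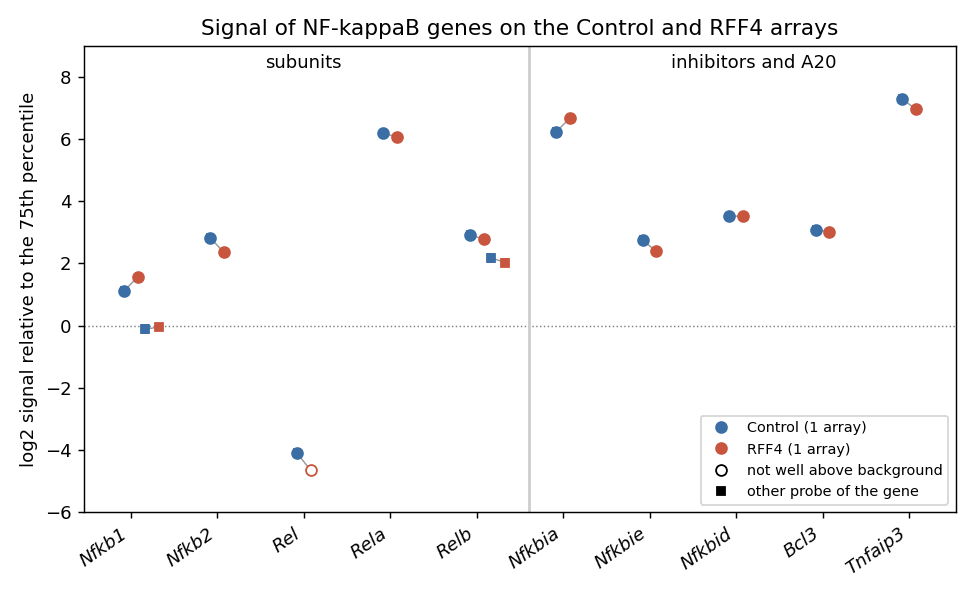
Log2 signal relative to the 75th percentile of each array (vertical axis) for the 10 NF-kappaB genes, with the Control array in blue and the RFF4 array in red; circles are the probes used, squares the other probe of Nfkb1 and Relb, and the open circle a signal not well above background. Each pair of points lies close together, with Nfkb1 and Nfkbia higher and Nfkb2, Nfkbie and Tnfaip3 lower on the RFF4 array.

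Of the inhibitors, Nfkbia was higher on the RFF4 array, Nfkbie and Tnfaip3 were lower, and Nfkbid and Bcl3 were nearly equal. Nfkbia was 6.23 on the Control array and 6.68 on the RFF4 array, a difference of 0.45 (1.37-fold higher). It encodes IkappaBα, the classic inhibitor that is degraded and resynthesized on activation. Nfkbie, which encodes IkappaBε, a slower inhibitor of the same type, was 2.75 and 2.39, a difference of -0.36 (1.28-fold lower). Tnfaip3, which encodes A20, was 7.29 and 6.97, a difference of -0.33 (1.25-fold lower).

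Nfkbid and Bcl3 encode nuclear proteins of the IkappaB family, which bind NF-kappaB dimers on DNA. They are counted with the inhibitors by that family, and their effect on NF-kappaB activity was not measured. Nfkbid, which encodes IkappaBNS, was 3.52 on the Control array and 3.53 on the RFF4 array, a difference of 0.01. Bcl3, a partner of p50 and p52 homodimers, was 3.08 and 3.02, a difference of -0.07. Nfkbiz, a further nuclear protein of that family and not among the 10 genes, differed by -0.35. The median difference of the 5 inhibitors was -0.07, with 2 higher and 3 lower.

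Over the 10 genes the median difference was -0.13 and the range -0.46 to 0.46, where the median of all 13513 genes with a difference was -0.01. Of the 10, 3 were higher and 7 lower, while 48.9% of all genes were higher and 51.1% lower. None (0 of 10) was more than 2-fold higher, compared with 12.3% of all genes, and none (0 of 10) more than 2-fold lower, compared with 5.05%. In either direction 17.4% of all genes passed 2-fold. The share past 2-fold higher was larger among dim genes, at 27.0% in the dimmest of 8 bins of signal, but 4.57% to 8.15% in the 4 brightest bins, which hold 9 of the 10 members. Of the 9 members well above background on both arrays, 5 differed by more than 2 technical SDs (Nfkb1, Nfkb2, Nfkbia, Nfkbie and Tnfaip3) and 4 by less than 1. The software error of a difference, 0.20, is larger, and Nfkbie at -0.36 and Tnfaip3 at -0.33 lay within 2 of it. Of all genes well above background on both, 58.2% differed by more than 2 technical SDs and 22.1% by less than 1. Of all genes, 55.1% had a smaller difference than Nfkb1, 55.4% a smaller one than Nfkb2, and 1.49% a smaller one than Nfkbid.

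Brightness moved with the differences of all genes, so members were set beside genes of like signal. In 8 bins of mean signal, the median of all genes ran from 0.48 in the dimmest through -0.15 to 0.15 in the brightest. Nfkbia, Rela and Tnfaip3 lay in the brightest bin, where Tnfaip3 and Rela stood below the median of the bin and Nfkbia above it. Nfkb1 lay in a bin with a median of -0.12, as did Nfkb2, Relb and Nfkbie in the next.

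**Figure D2:**
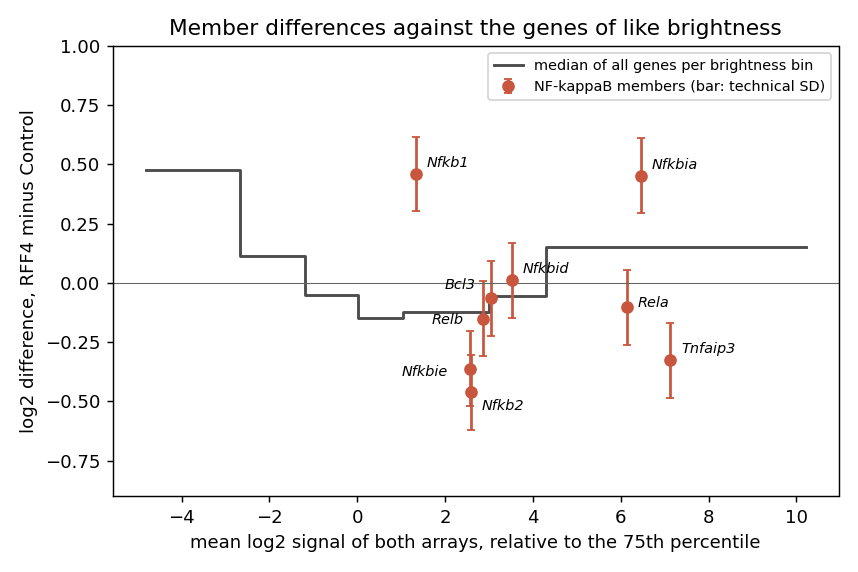
Log2 difference of the 9 NF-kappaB genes well above background on both arrays (points; bars are the technical SD of 0.16) against the mean log2 signal of both arrays, with the median difference of all genes in each of 8 bins of signal as a stepped line. Nfkb1 and Nfkbia lie above the line and Nfkb2, Nfkbie, Rela and Tnfaip3 below it.

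The size of each difference, and the direction of Nfkb1, Nfkbia and Nfkbid, rested on how the arrays were brought to a common level. The 75th percentiles differed by 1.17 on the log2 scale, and before scaling all 10 members were dimmer on the RFF4 array. Scaled instead to equal spike-in signals, all 10 were lower, by differences from -1.57 to -0.65, and 8 of 10 were more than 2-fold lower, as were 55.7% of all genes. Every gene shifts by -1.11 under that scaling. Without it, Nfkb1 kept a positive difference in all 10 settings (0.26 to 0.57), as did Nfkbia (0.06 to 0.45). The filters and outlier spots left a member measured on both arrays almost unchanged, and the authors' table nearly repeated the scaling used here. These settings were therefore not separate checks of its sign. All settings but the mean of all probes read Nfkb1 from its brighter probe. Its other probe differed by 0.06, smaller in size than the shift of -0.17 by median scaling. Nfkb2 (-0.65 to -0.41), Rela (-0.41 to -0.10), Relb (-0.35 to -0.12), Nfkbie, Bcl3 and Tnfaip3 (-0.83 to -0.33) were lower in all 10 settings. Rel was lower in all 8 that gave it a value. Nfkbid changed sign, from -0.17 to 0.01. The share of higher genes among all those past 2-fold was 70.9% with the 75th percentile, 54.8% with the median and 2.55% with the spike-ins.

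**Figure D3:**
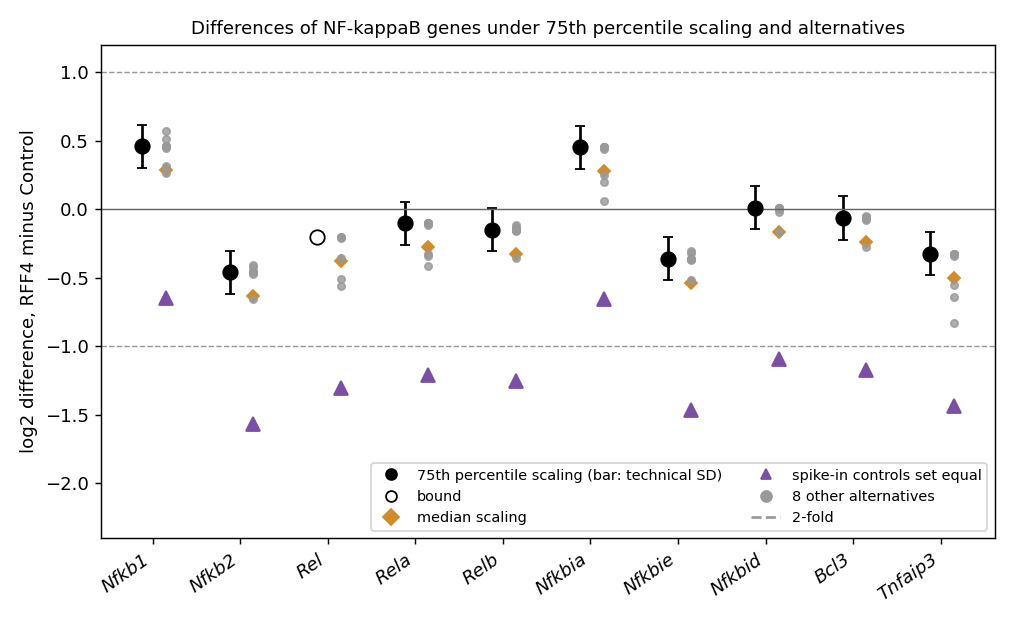
Log2 difference, RFF4 minus Control, of each NF-kappaB gene under 75th percentile scaling (black, with the technical SD as a bar; the open circle is the bound of Rel) and under the alternatives (grey, with median scaling in orange and spike-in scaling in purple); dashed lines mark 2-fold. The spike-in values lie from -1.57 to -0.65, below all others of the same gene.

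Of 29 listed kinases and adaptors that carry the signal to NF-kappaB, all 29 had a difference, with a median of -0.47. By any size 5 were higher and 24 lower, where 51.1% of all genes were lower. Past 2-fold, 0 were higher and 1 (3.45%) was lower, against 12.3% and 5.05% of all genes. This was Birc2, which encodes the ubiquitin ligase cIAP1 and had a level of 2.53 on the Control array and 1.46 on the RFF4 array, a difference of -1.07 (2.11-fold lower). The next sizes were those of Btrc at -0.93, the ubiquitin ligase subunit that recognizes phosphorylated IkappaB, and of the IkappaB kinase genes Ikbkb at -0.92 and Chuk at -0.76. The adaptor Traf5 stood at -0.79. These 4 were within 2-fold by their brightest probe, but the other probe of Btrc stood at -1.09 and the mean of both at -1.01. The largest positive difference was that of Traf2, at 0.34, and its other probe was at -0.15.

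Of 22 other genes listed as IkappaB proteins or brakes of the pathway, all 22 had a difference, with a median of -0.09, 9 higher and 13 lower. None (0 of 22) was more than 2-fold higher and 1 of 22 (4.55%) was more than 2-fold lower, against 12.3% and 5.05% of all genes. Irak3, an inhibitory kinase-like protein of Toll-like receptor signaling, was -1.99 on the Control array and -4.39 on the RFF4 array, where it was not well above background. It was at least 4.95-fold lower, a bound of -2.31, which became -0.37 with normexp background correction. The largest others were Tnip2 at -0.75, Zc3h12a at -0.73, Nfkbil1 at 0.62 and N4bp1 at -0.56.

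Of 35 known target genes of NF-kappaB, 29 had a difference, with a median of 0.30, 18 higher and 11 lower. The other 6 (Ccl20, Cxcl1, Cxcl2, Il6, Cd40 and Ptgs2) were not well above background on either array. More than 2-fold higher were 9 of 29 (31.0%), against 12.3% of all genes, and more than 2-fold lower 1 of 29 (3.45%), against 5.05%. Of the 6 targets in the 2 dimmest bins of signal, 5 (Il2, Lta, Il1b, Ier3 and Ccr7) passed 2-fold, where 27.0% and 19.6% of all genes did. Of the 23 in the other bins 4 passed, where 4.57% to 13.8% of all genes did, depending on the bin. The cytokine genes were Ltb with a difference of 1.82, Il2 with 1.81, Lta with 1.81, Il1b with 1.64 and Tnf with 1.44. Ltb and Lta encode the lymphotoxin chains, and Lta stood at -3.57 on the Control array and -1.76 on the RFF4 array. Tnf was -1.04 and 0.40. The others were the transcription factor Irf4 at 1.43, the chemokine receptor Ccr7 at 1.39, the interferon receptor chain Ifngr2 at 1.34 and the early response gene Ier3 at 1.13. The lower one was the costimulatory receptor Tnfrsf4 at -1.21. Under spike-in scaling 0 of these genes were more than 2-fold higher, against 1.46% of all genes, and 12 were more than 2-fold lower, against 55.7%. One gene, Nfkbiz, is in both this list and that of the brakes.

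Most genes listed as markers of cells other than the sorted ones also stood higher on the RFF4 array. Of 18 epithelial markers, 17 had a difference, all 17 were higher and 14 passed 2-fold higher, where 12.3% of all genes did. Their summed linear level was 198 times the 75th percentile on the Control array and 587 times on the RFF4 array, sums which the brightest probes set. Epcam stood at 1.86 and 2.26, and Vil1 at 2.73 and 4.53. Of 17 macrophage and dendritic cell markers, 14 had a difference, 13 were higher and 11 passed 2-fold higher, against 12.3% of all genes. Many of them were dim, with a median level of -3.22 on the Control array and -1.17 on the RFF4 array. In the 2 dimmest bins of signal, 27.0% and 19.6% of all genes passed 2-fold higher. The sum of these markers was 77.0 on the Control array and 171 on the RFF4 array. Itgax, the largest part of both sums, stood at 5.52 and 5.73, near Cd8a at 6.24 and 6.18. Whether the sorted cells express Itgax was not tested. Csf1r stood at 0.01 and 1.46 by its brightest probe, while its other probes differed by 0.60 and 0.55, and Cd74 stood at 1.50 and 4.87, while Mrc1 was not well above background on either array. Of 8 B and plasma cell markers, 5 had a difference and 4 passed 2-fold higher, against 12.3% of all genes, with sums of 26.5 and 59.2. Jchain stood at 3.90 and 5.58 and Cd79b at 3.42 and 3.17, and Cd79a and Pax5 were among those not well above background on either array. Under spike-in scaling the medians of these lists were 0.41, 0.46 and 0.57, in place of 1.51, 1.90 and 1.68. Past 2-fold higher were then 0 of 17, 7 of 15 and 1 of 5 markers, against 1.46% of all genes. Past 2-fold lower were 0 of 17, 1 of 15 and 1 of 5, against 55.7%. The NF-kappaB genes and their targets are expressed in these cells too, and their part in the differences above was not tested. In RNA of pooled cells, fewer cells of a type and less RNA per cell cannot be told apart.

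**Figure D4:**
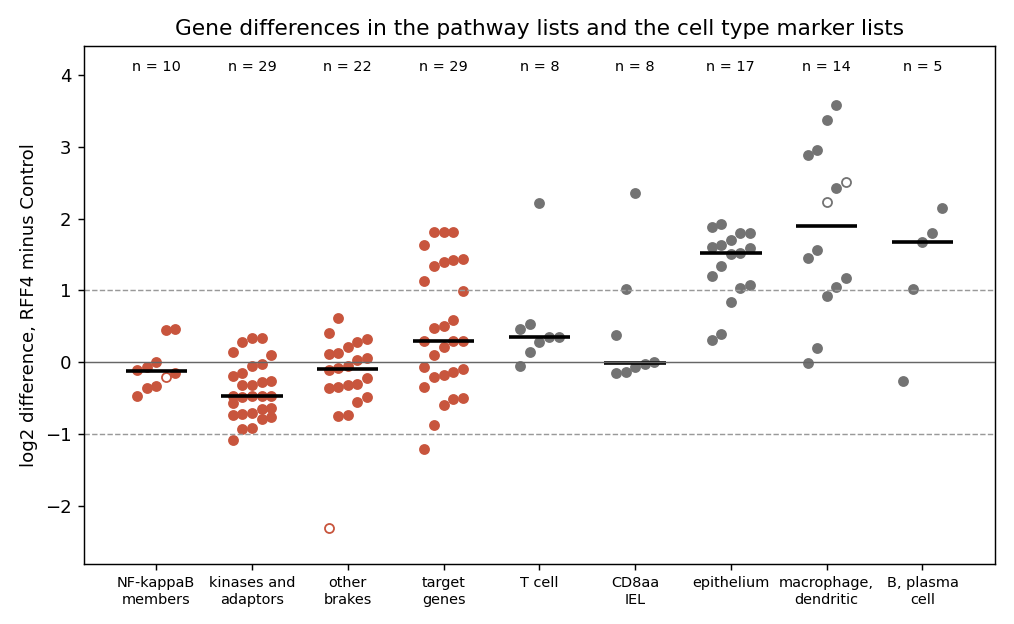
Log2 difference, RFF4 minus Control, of each gene (points) in the NF-kappaB members, the 3 pathway lists and 5 lists of cell type markers, with the median of each as a bar, the number of genes above it, open points for bounds and dashed lines at 2-fold. The medians run from -0.47 for kinases and adaptors to 1.90 for macrophage and dendritic cell markers.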

How the data were processed

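The authors deposited spot intensity values on a linear scale, which Agilent Feature Extraction 10.7.1.1 had corrected for background but not normalized between arrays. A table of normalized log2 values, deposited by the authors, was used as an alternative. Its difference between arrays lay within 0.05 of the one used here for 100% of 55280 probes.

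Here, control and outlier spots were left out, log2 signals were taken relative to each array's 75th percentile (8.99 for Control and 7.82 for RFF4), and spots of a probe were averaged. A gene was read from its brightest probe, well above background (at least 50% of its spots) on at least 1 array. Where this held on 1 array only, the difference is a bound: the dim side was raised to the lowest well-above-background signal of its array if it lay under it. Of 55679 gene probes, 27509 were matched by accession to a symbol of GRCm38.p6. Bounds applied to 558 genes, and 711 with a bound under 1-fold got no difference. The steps were tested on simulated data.

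Members and lists were chosen with earlier results of these data known. The genes named are all members and, of each pathway list, those past 2-fold or else up to 5 with the largest difference; Traf2, Nfkbiz and the markers Cd2, Klrb1b, Gzma, Itgax, Jchain and Cd79b were named after their values were seen. The kappaB consensus was chosen after a first motif had been searched. Alternatives were 10 other scalings, background corrections, filters and sources of values, with normexp at an offset of 50. Python 3.11.15 (numpy 2.4.6, pandas 2.3.3, matplotlib 3.10.9) and R 4.3.3 (limma 3.58.1) were used. Results of 1 listed marker gene are not reported here by name.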

Additional observations from a re-analysis of the deposited data

How the results depend on the processing

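The median of the members moved from -0.13 to -0.30 with median scaling, -1.23 with the spike-in controls set equal and -0.34 with normexp. With the spike-ins 8 members were more than 2-fold lower, and 0 under the other alternatives. The median of the kinases and adaptors moved to -0.64 with median scaling and -1.57 with the spike-ins, and the number more than 2-fold lower to 3 and 25, and to 2 with the mean of all probes. The median of the other brakes moved to -0.26 with median scaling and -1.19 with the spike-ins, and the number more than 2-fold lower to 15 with the spike-ins, 0 with normexp and 0 when a gene had to exceed background on both. The median of the target genes moved to 0.13 with median scaling, -0.80 with the spike-ins and 0.51 with no filter and no bound. The number of target genes more than 2-fold higher moved to 0 with the spike-ins and 14 with no filter, and more than 2-fold lower to 2 with median scaling and 12 with the spike-ins. Of all genes, 7.98% were more than 2-fold lower with median scaling, 55.7% with the spike-ins, 4.74% with the mean of all probes, 3.67% with normexp and 4.50% on both arrays, and 30.0% were more than 2-fold higher with no filter. The cause of these moves was not tested, other than that a scaling constant shifts all genes alike. The looser kappaB motif, searched first, was in 10 windows and the consensus, chosen after seeing those matches, in 9. Naming probes by a gene name column was not run, because that column is not in the scanner files used here. No paired analysis was possible because each group has 1 array, and for the same reason no array could be left out. Signal over background was 9.47 on the Control array and 5.78 on the RFF4 array, which limits dim genes such as Rel and Irak3.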
